A study of Mus musculus with 6 samples.

Results

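The interferon gamma induced GTPases are enzymes that cells make in quantity once they sense interferon gamma, and Irf1 is a transcription factor made in the same response. The set described here holds 10 genes of the 33696 features in the deposited tables, and all 10 symbols were found, each at a single feature. Its members are the guanylate-binding proteins Gbp2 (ENSMUSG00000028270), Gbp3 (ENSMUSG00000028268), Gbp5 (ENSMUSG00000105504) and Gbp7 (ENSMUSG00000040253), and the immunity-related GTPases Irgm1 (ENSMUSG00000046879), Irgm2 (ENSMUSG00000069874), Igtp (ENSMUSG00000078853), Iigp1 (ENSMUSG00000054072) and Tgtp2 (ENSMUSG00000078921), with Irf1 (ENSMUSG00000018899). They were chosen by symbol as a readout of interferon gamma sensing, and their raw counts were read across the lineages and libraries analysed here.

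Interferon gamma, made mainly by T and NK cells, binds a receptor of the chains Ifngr1 and Ifngr2, and the kinases Jak1 and Jak2 then pass the signal on to the nucleus. The signal acts through GAS elements in promoters, among them that of Irf1, and IRF1 protein in turn binds ISRE elements in many of the GTPase genes. Guanylate-binding proteins coat bacteria and the vacuoles in which microbes live, whereas the immunity-related GTPases fall into regulators that sit on the cell's own membranes (Irgm1, Irgm2, Igtp) and effectors that load onto foreign vacuoles (Iigp1, Tgtp2). Type I interferon can induce most of these genes as well, so none of them is a reporter of interferon gamma alone.

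Live cells bearing CD45, the surface phosphatase of leukocytes, were sorted from mouse mammary tumours and profiled by droplet single-cell RNA sequencing of transcript 3' ends; the series title names triple negative breast cancer, MERTK inhibition and cyclophosphamide. There was 1 library for each treatment label, and the labels (MRX, CTX and Combined, ctxd18t and combod18t, and VC) are not spelled out in the sources used here, so each library keeps its label. Mouse strain, tumour line, drug doses, age and the number of animals behind a library are not given there either, and VC counts were not analysed here, so no comparison with VC was made. The protocol text, the same on every sample, speaks of mice at day 7 treated 3 hours before harvest and lists barcode sets for Combined, CTX, MRX and VC in 1 run; it lists none for ctxd18t and combod18t, whose d18 is read here as day 18. Day and run can therefore not be told apart between the day 18 pair and the other 3 libraries, and ratios were computed only within the pair or among the 3; the levels of all 5 are set side by side as values. With 1 library a label, no difference has a replicate check and no p-value is given; every interval is a 95% interval that covers counting error only. Bulk sums over a class do not separate fewer transcript-bearing cells from less RNA per cell.

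The 5 libraries held from 39820290 to 100733879 UMIs (unique molecular identifiers, 1 per captured transcript), and 25653 cells were kept, with median UMIs per cell between 6239 in MRX and 8907 in ctxd18t. CTX and combod18t shared 34 cell barcodes and Combined and ctxd18t shared 21; no other pair of libraries shared any, and leaving the shared barcodes out changed no count of members in monocyte-macrophage-like and T-like cells, where it was tried. The cells formed 26 clusters, named from marker genes as monocyte-macrophage-like, T-like, NK-like, B-like, conventional dendritic-like, pDC-like (plasmacytoid dendritic), neutrophil-like, fibroblast-like and smaller classes. Cluster 6 carried more NK than T markers among its leading genes and is given by its number.

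The proximal promoters of the members were searched for the GAS and ISRE elements named above. The members were chosen as a readout of interferon gamma sensing, so the shares below are descriptions. RefSeq promoter windows on GRCm38.p6 were available for 9 of the 10 members, as 11 windows, and the 250 bases before each start were searched on both strands. ISRE letters were defined as GAAA, any 2 bases and GAAA, or the reverse complement TTTC, any 2 bases and TTTC. GAS letters were TTC, any 3 bases and GAA, which is its own reverse complement; no GAS match overlapped an ISRE match in these windows. ISRE letters were found in 8 of the 9 members and in 3.46% of the 27025 genes of the table (2.98% of its 32851 windows), and GAS letters in 6 of the 9 and in 8.13% of genes (7.02% of windows). The immunity-related GTPases Irgm2 (chr11:58214877-58214947, plus strand), Igtp (chr11:58199486-58199555, plus strand) and Tgtp2 (chr11:49064248-49064318, minus strand) held a GAS match followed 2 bases later by an ISRE match, an arrangement (GAS, then ISRE within 15 bases) found in 0.0517% of all windows. They are given 5′ to 3′ on the gene's strand, with the matches in capitals.
Irgm2: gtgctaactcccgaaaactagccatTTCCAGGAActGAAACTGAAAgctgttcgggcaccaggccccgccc
Igtp: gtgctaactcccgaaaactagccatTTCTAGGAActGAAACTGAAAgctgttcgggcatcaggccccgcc
Tgtp2: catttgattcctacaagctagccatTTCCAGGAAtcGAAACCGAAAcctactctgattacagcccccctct
The Irgm2 and Igtp stretches matched at 68 of 70 positions, and the Irgm2 and Tgtp2 stretches at 46 of 71. For contrast, the windows of Gbp2 (chr3:142620579-142620638, plus strand), Gbp3 (chr3:142559974-142560039, plus strand) and Irgm1 (chr11:48871421-48871475, minus strand) show ISRE letters alone, overlapping in Gbp3 and Irgm1, and that of Irf1 (chr11:53769899-53769957, plus strand) shows GAS letters with no ISRE match in the window.
Gbp2: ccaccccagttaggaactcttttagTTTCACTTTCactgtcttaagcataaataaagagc
Gbp3: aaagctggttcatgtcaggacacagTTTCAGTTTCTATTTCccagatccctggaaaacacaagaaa
Irgm1: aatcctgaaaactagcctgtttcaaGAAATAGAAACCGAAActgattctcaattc
Irf1: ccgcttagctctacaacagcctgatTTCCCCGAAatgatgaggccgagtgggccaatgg
A match describes letters and not a bound site, and the tables hold no binding data. RefSeq lists another start for Gbp3 and for Irf1, and neither motif was found in those windows.

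Monocyte-macrophage-like cells carried every member at a low level in MRX and at a higher level in CTX and Combined. Levels are given as CPM, a gene's UMIs per 1000000 UMIs summed over the class in a library; the ratio of CPM + 1 is given on the log2 scale, and a member was called past 2-fold when that log2 ratio was at least 1 in size and its interval excluded 0. All 10 members were past 2-fold higher in CTX than in MRX, where 1.52% of the 7381 genes with at least 10 CPM on average and 50 counts were. All 10 were also higher in Combined than in MRX, where 2.59% of genes were. These comparisons share the MRX library. Of the 10 members, 9 passed the filter on low counts, the exception in both comparisons being Tgtp2.

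Gbp2, which helps to open microbe-containing vacuoles to the cytosol, stood at 47.3 CPM (43.5 to 51.4) in MRX, 180.4 (177 to 184) in CTX, 259.9 (252 to 268) in Combined, 113 (107 to 119) in ctxd18t and 101 (90.5 to 113) in combod18t. No interval of another library reached that of MRX, and Combined lay above CTX. The log2 ratios to MRX were 1.91 (1.81 to 2.06) in CTX and 2.43 (2.33 to 2.59) in Combined, or 3.75-fold and 5.40-fold. Gbp3, its neighbour on chromosome 3, was at 50.02 CPM in MRX, 125 in CTX and 124 in Combined, followed by 93.2 in ctxd18t and 86.3 in combod18t. Here CTX and Combined were level with each other, with a log2 ratio of -0.01 between them.

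Gbp5, linked to assembly of the NLRP3 inflammasome, was at 22.5 CPM (19.9 to 25.4) in MRX, 72.6 (70.3 to 75.0) in CTX, 90.8 (85.9 to 95.9) in Combined, 46.1 (42.3 to 50.2) in ctxd18t and 52.0 (44.3 to 60.7) in combod18t. Gbp7 was at 53.3 CPM in MRX, 150.5 in CTX and 187 in Combined, followed by 107 in ctxd18t and 127 in combod18t. For both genes MRX was lowest and Combined highest of the first 3. Their log2 ratios of CTX to MRX were 1.65 (1.51 to 1.87) for Gbp5 and 1.48 (1.38 to 1.62) for Gbp7.

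Among the regulators that stay on host membranes, Irgm1, which is needed for macrophages to control mycobacteria, was at 38.9 CPM (35.4 to 42.6) in MRX, 91.4 (88.8 to 94.0) in CTX, 105 (99.7 to 110.4) in Combined, 65.2 (60.6 to 70.1) in ctxd18t and 61.1 (52.7 to 70.4) in combod18t. Irgm2, which like the other regulators restrains the effectors, was at 8.86 CPM in MRX, 20.6 in CTX and 25.1 in Combined, followed by 27.9 in ctxd18t and 23.9 in combod18t. Igtp, also called Irgm3, was at 28.3 CPM in MRX, 77.3 in CTX and 97.4 in Combined, followed by 42.3 in ctxd18t and 35.5 in combod18t. MRX (25.3 to 31.5) was lowest of the first 3.

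The effector Iigp1 had the largest ratio of the members. It was at 23.6 CPM (20.9 to 26.6) in MRX, 147 (144 to 151) in CTX, 159.9 (153 to 167) in Combined, 93.4 (87.9 to 99.2) in ctxd18t and 95.6 (85.0 to 107) in combod18t. The log2 ratio of CTX to MRX was 2.59 (2.47 to 2.82), 6.03-fold, and that of Combined to MRX was 2.71 (2.58 to 2.94). Tgtp2, the other effector, was scarce, at 4.13 CPM (3.06 to 5.46) in MRX and between 10.6 and 13.3 CPM in the other 4 libraries. Tgtp1 is a near-identical copy of Tgtp2, and Irgm2 and Igtp as well as the Gbp genes resemble each other, so the split of reads within these groups is uncertain.

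Irf1 was at 70.3 CPM (65.6 to 75.2) in MRX, 197 (193 to 201) in CTX, 227 (219 to 235) in Combined, 204 (196 to 213) in ctxd18t and 157 (143 to 171) in combod18t. The intervals of MRX, CTX and Combined were separate, and combod18t was lower than ctxd18t. The log2 ratios to MRX were 1.47 (1.38 to 1.59) in CTX and 1.68 (1.58 to 1.80) in Combined.

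**Figure D1:**
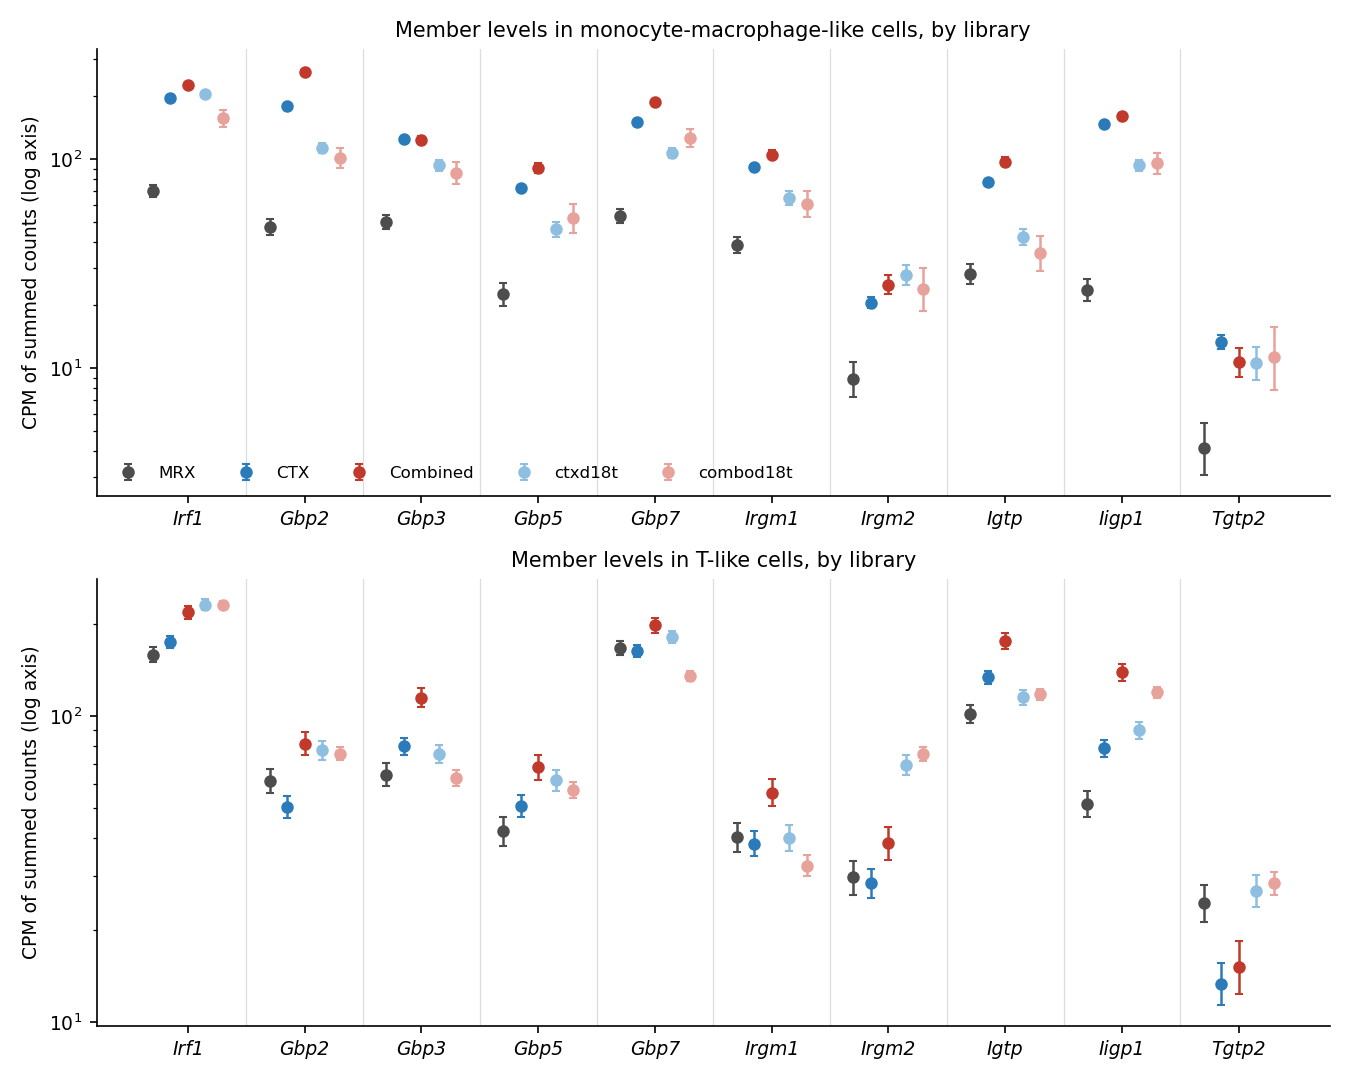
Level of each of the 10 members (CPM, log axis) in monocyte-macrophage-like and T-like cells, 1 point per library with its 95% counting interval. In monocyte-macrophage-like cells the MRX point lies below the other 4 libraries for every member (Gbp2, 47.3 CPM in MRX against 180.4 in CTX), while in T-like cells the libraries lie closer together.

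Member ratios between Combined and CTX were below 2-fold in these cells, as were those of the day 18 pair. Between Combined and CTX no member was past 2-fold in either direction, where 0.135% of genes were higher and 0.229% lower. The largest log2 ratio was that of Gbp2 at 0.52 (0.47 to 0.58), above the 95th percentile of all genes at 0.38. Tgtp2 had the lowest at -0.29 (-0.58 to -0.06), and 8 of the 10 were positive. Between combod18t and ctxd18t no member was past 2-fold, where 0.447% of genes were higher and 1.02% lower. The log2 ratios ran from -0.38 (-0.53 to -0.24) for Irf1 to 0.24 (0.07 to 0.41) for Gbp7, and 4 of the 10 were positive. In the combod18t class, which rested on 226 cells, erythroid markers summed to 496 CPM against 3.06 in ctxd18t and at most 0.506 in the other 3; their part in these ratios was not tested. T markers summed to 58.7 CPM in MRX, 105 in CTX and 102 in Combined, followed by 247 in ctxd18t and 198 in combod18t, and neutrophil markers to between 326.5 and 884 CPM, with at most 1 marker of either list at 0.

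The class was not uniform, and its mix of clusters moved with the libraries. Cluster 0, led by Ly6i, Gm15056, Cxcl11 and Cfb, made up 14.5% of the monocyte-macrophage-like cells of MRX, 72.9% in CTX and 81.2% in Combined, followed by 13.3% in ctxd18t and 10.6% in combod18t. Clusters 4 (led by C1qa, C1qc and Ms4a7) and 5 (led by genes such as Plcb1, F13a1 and Vcan) held most of the rest. The members and the other interferon genes had been kept out of the genes used for clustering, yet Cxcl11 and Cfb, which lead cluster 0, are themselves interferon-inducible.

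Within MRX the summed level of the 10 members was 874.5 CPM (830.0 to 921) in cluster 0, 218 (205 to 231) in cluster 4 and 303 (288 to 318) in cluster 5. In CTX the same sums were 1141, 756 and 1073 CPM, and in Combined 1316, 963 and 1352 CPM. Cluster 0 was thus already high in MRX, and the other clusters were low there and several times higher in CTX and Combined. In cluster 4 all 10 members were past 2-fold higher in CTX than in MRX (background 1.76%), with a median log2 ratio of 1.74 against 0.03 over all genes of the cluster. In cluster 5 all 10 were (background 2.30%), with a median of 1.72 against 0.00, and Iigp1 went from 9.88 to 107 CPM. In cluster 0 only Irf1 was past 2-fold in CTX against MRX, at a log2 ratio of 1.04 (background 0.731%), from 93.0 to 193 CPM. The median over the members there was 0.13. In Combined against MRX, Irf1 at 1.24 and Iigp1 at 1.01 were past 2-fold higher in cluster 0 (background 1.6%). Gbp2 in cluster 0 was at 184 CPM in MRX and 205 in CTX, whereas in cluster 4 it was at 18.03 and 83.6 CPM.

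When both libraries were given the same mix of clusters 0, 4 and 5, the median log2 ratio of CTX to MRX over the members was 0.71, with a range from 0.58 for Igtp to 1.52 for Iigp1, and 2 members, Iigp1 and Irf1, stayed past 2-fold. For Combined against MRX the median was 1.04 and 6 members stayed past it. Both counts rest on the size of the ratio alone, without an interval, and have no background share beside them. Every member remained positive in both comparisons. Because cluster 0 is itself led by interferon-inducible genes, holding its share fixed also holds part of any interferon response fixed.

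**Figure D2:**
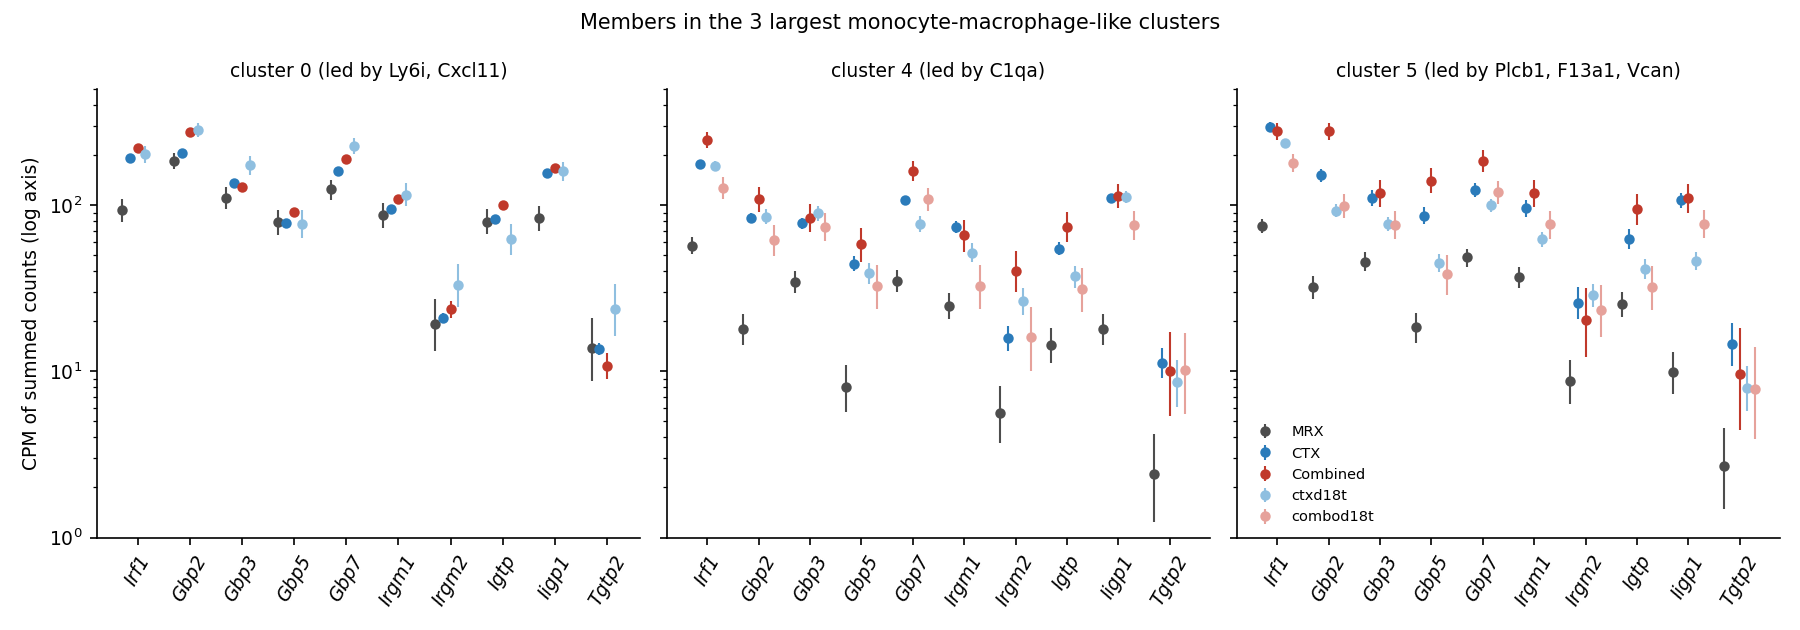
Level of each member (CPM, log axis) within clusters 0, 4 and 5 of the monocyte-macrophage-like class, 1 point per library with at least 50 cells and its 95% counting interval. In clusters 4 and 5 the MRX points lie below the others (Gbp2 in cluster 4, 18.03 CPM in MRX against 83.6 in CTX). In cluster 0 MRX and CTX lie closer together, with the largest log2 ratios for Irf1 (1.04, 93.0 against 193 CPM) and Iigp1 (0.90).

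Counted cell by cell at a fixed depth, the higher level was spread over many cells. After each cell was thinned to 1000 UMIs, 21.1% (19.0 to 23.4) of 1370 MRX cells of the class held a UMI of at least 1 member, against 56.1% (54.6 to 57.6) of 4299 in CTX, 60.9% (58.1 to 63.7) of 1167 in Combined, 43.8% (40.1 to 47.4) of 736 in ctxd18t and 42.2% (35.6 to 48.9) of 223 in combod18t. At least 3 members were seen in 1.09% of MRX cells, 8.65% in CTX and 12% in Combined, followed by 4.21% in ctxd18t and 4.04% in combod18t. Between 3 and 16 cells of a library were too shallow to enter. For Gbp2 alone the thinned shares were 3.28%, 14.7%, 21.7%, 8.70% and 6.73% in the same order, and without thinning 18.5%, 61.8%, 73.9%, 47.2% and 43.4%. No class of these tumours should lack the members, so no share gives their background from free RNA; C1qa, a macrophage gene, gave 0.65% to 2.69% in thinned B-like cells as a gauge of it.

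**Figure D3:**
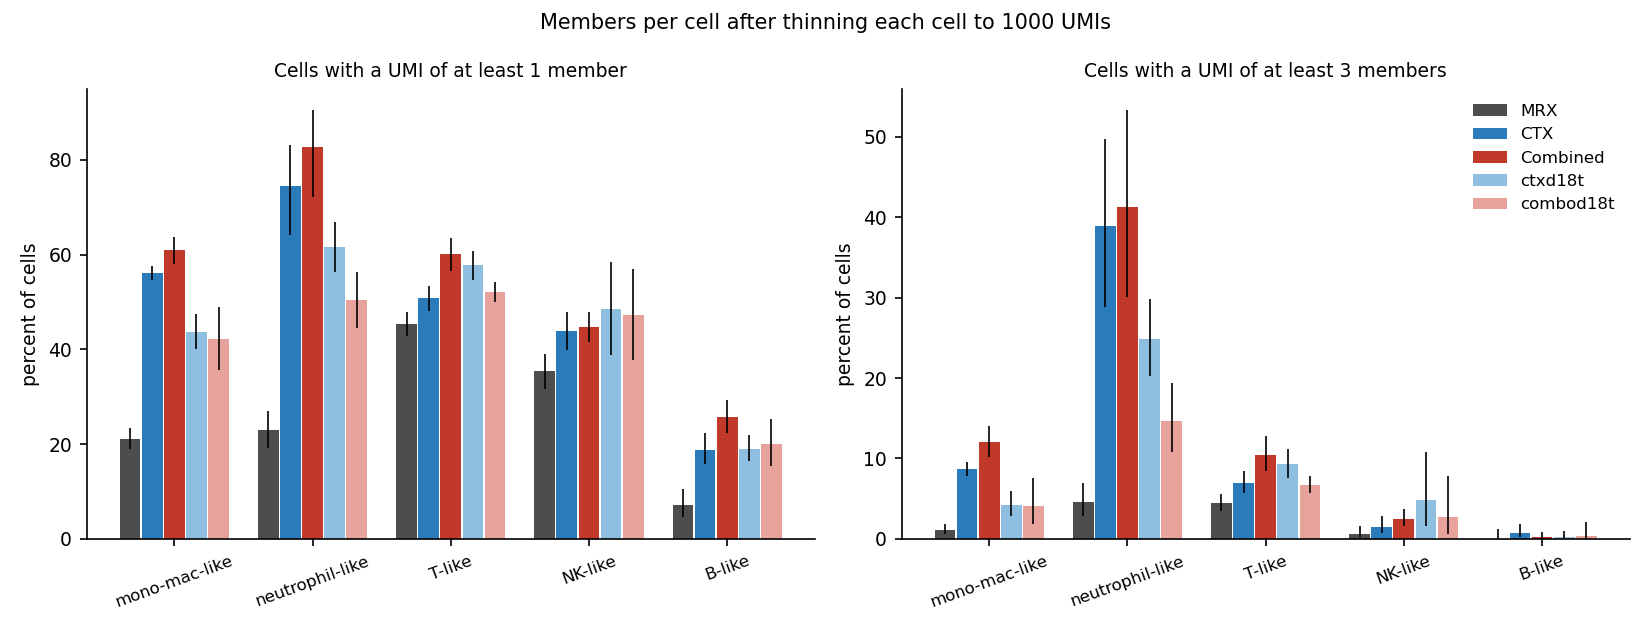
Percent of cells with a UMI of at least 1 (left) and of at least 3 (right) of the 10 members after thinning to 1000 UMIs, as bars for 5 classes and 5 libraries with exact 95% binomial intervals. In monocyte-macrophage-like cells 21.1% of MRX and 56.1% of CTX cells held at least 1 member, and in T-like cells the shares ran from 45.4% to 60.05%.

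T-like cells carried the members at levels that differed little between MRX and CTX. No member was past 2-fold in CTX against MRX (background 1.59% higher), and 1, Iigp1, was in Combined against MRX (background 1.53%). Iigp1 was at 51.8 CPM (46.9 to 56.96) in MRX, 78.7 (73.7 to 83.9) in CTX, 139 (130.4 to 149) in Combined, 89.9 (84.2 to 95.9) in ctxd18t and 120.0 (115 to 125) in combod18t. No interval overlapped another, with MRX lowest and Combined highest. The log2 ratio of Combined to MRX was 1.41 (1.26 to 1.60).

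Monocyte-macrophage markers in T-like cells summed to between 368 CPM in combod18t and 563 in Combined.

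The guanylate-binding proteins of T-like cells were highest in Combined. Gbp2 was at 61.4 CPM in MRX, 50.5 in CTX and 81.4 in Combined, followed by 77.5 in ctxd18t and 75.6 in combod18t. Gbp3 was at 64.5 CPM in MRX, 79.9 in CTX and 115 in Combined, followed by 75.3 in ctxd18t and 62.8 in combod18t. Gbp2 was thus lower in CTX than in MRX and Gbp3 higher, each by less than 2-fold. The T-like clusters were mixed differently in these libraries, with cluster 7, led by Gzmk, Ccl5 and Cd8a, at 44.04% of the T-like cells of MRX and 13.001% of those of CTX. With the same mix of clusters in both, the log2 ratios of CTX to MRX of Gbp2 (0.35), Gbp7 (0.18), Irgm1 (0.29) and Irgm2 (0.24) turned from negative to positive, and Gbp3 was at 0.35. Gbp5 was at 42.1, 51.0, 68.1, 61.7 and 57.5 CPM in the same order of libraries, and Gbp7 at 167, 163, 198, 181 and 135 CPM.

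Of the regulators, Irgm1 in T-like cells was at 40.2 CPM in MRX, 38.4 in CTX and 56.3 in Combined, followed by 40.0 in ctxd18t and 32.5 in combod18t. Igtp was at 102, 134, 176, 116 and 118 CPM in the same order. Irgm2 was at 29.7 CPM (26.1 to 33.7) in MRX, 28.4 (25.5 to 31.6) in CTX and 38.5 (33.9 to 43.5) in Combined, followed by 69.4 (64.4 to 74.7) in ctxd18t and 75.5 (71.6 to 79.5) in combod18t. Tgtp2 was lower in CTX (13.4 CPM, 11.3 to 15.6) and Combined (15.1, 12.3 to 18.4) than in MRX (24.5, 21.2 to 28.2), with 26.9 in ctxd18t and 28.5 in combod18t, and its log2 ratio of CTX to MRX was -0.83 (-1.19 to -0.57), or -0.18 with the same mix of clusters. Irf1 was at 159 CPM in MRX, 175 in CTX, 219 in Combined and 232 in both day 18 libraries.

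Between Combined and CTX all 10 members were higher in Combined in T-like cells, with log2 ratios from 0.17 (-0.20 to 0.55) for Tgtp2 to 0.82 (0.69 to 0.96) for Iigp1, and a median of 0.42. None was past 2-fold, where 0.338% of genes were higher. With the same mix of T-like clusters in both libraries the median was 0.16 and Tgtp2 was at -0.17. Between combod18t and ctxd18t, 5 of the 10 were positive, from -0.42 (-0.51 to -0.33) for Gbp7 to 0.41 (0.31 to 0.53) for Iigp1, with none past 2-fold (background 1.89% higher and 2.40% lower). With the same mix of clusters all 10 day 18 ratios were negative, from -0.51 to -0.01, so that Igtp, Iigp1, Irgm2, Tgtp2 and Irf1, the last at 0.0025 before, changed sign.

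Within a library the T-like clusters spanned a wider range of summed member levels than the class did across libraries (742 to 1107 CPM). Cluster 9, led by Il1rl1, Il2ra, Ctla4 and Foxp3, genes typical of regulatory T cells, had the highest summed level among the T-like clusters of at least 50 cells in every library. It was 959.7 CPM (899 to 1024) in MRX, 1608 (1542 to 1677) in CTX, 1765 (1692 to 1840) in Combined, 1654 (1588 to 1723) in ctxd18t and 1276 (1230.0 to 1323) in combod18t. In MRX its interval overlapped that of cluster 7, at 902 CPM (868 to 937), while in the other 4 libraries cluster 7 was lower, between 1016 and 1332 CPM. Cluster 12, led by Penk, Ccl1 and Pdcd1, was at 332 CPM in CTX and 359 in Combined, followed by 627 in ctxd18t and 652 in combod18t, and had too few cells in MRX.

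In cluster 9, Iigp1 was at 78.9 CPM (62.2 to 98.8) in MRX, 259 (233 to 288) in CTX, 292 (263 to 324) in Combined, 205 (182 to 230) in ctxd18t and 148 (132 to 164) in combod18t. Igtp was at 101 CPM (81.7 to 123) in MRX and 276 (248 to 305) in CTX. These were the only members past 2-fold in CTX against MRX in that cluster (background 1.13%), with log2 ratios of 1.70 and 1.44, and no member was past it in cluster 7 (background 0.616%). The difference between the clusters was not tested. In Combined against MRX, 4 members of cluster 9 were past 2-fold higher, where 1.80% of genes were. Cluster 10 had 4 past 2-fold higher in that comparison too (background 1.35%). Cluster 7 had 2 higher (background 1.5%) and 1 lower (background 1.63%).

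Neutrophil-like cells had the highest summed level of the members in every library but MRX, and the widest spread between libraries. Gbp2 was at 108 CPM (91.5 to 126) in MRX, 502 (437 to 573) in CTX, 899 (794 to 1013) in Combined, 497 (464 to 531) in ctxd18t and 359.5 (331 to 389) in combod18t. Irf1 followed the same pattern, with 123 CPM in MRX, 402 in CTX and 748 in Combined, followed by 512 in ctxd18t and 282 in combod18t. In both genes MRX was lowest and Combined highest, with no overlap between these 2 libraries. All 10 members were past 2-fold higher in CTX than in MRX (background 11.1%) and in Combined than in MRX (background 6.59%). Iigp1 and Tgtp2 did not pass the filter on low counts in these comparisons, which the genes of the background did.

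The effectors Iigp1 and Tgtp2 were almost absent from neutrophil-like cells of MRX, with 2 UMIs and 1 UMI. Iigp1 was at 1.39 CPM (0.168 to 5.02) in MRX and 74.0 (50.6 to 104) in CTX, a log2 ratio of 4.97 with a counting interval from 3.76 to 8.84. Tgtp2 was at 0.696 CPM and 27.7 CPM, a log2 ratio of 4.08 (2.56 to 10.74). Gbp3 had the next largest at 2.64 (2.12 to 3.26). In Combined against MRX the 3 largest were Iigp1 at 4.42, Tgtp2 at 3.39 and Gbp2 at 3.05. In combod18t against ctxd18t none was past 2-fold (background 1.45% higher and 1.53% lower), and the 3 largest, Irf1 at -0.86 (-1.03 to -0.70), Irgm1 at -0.71 and Tgtp2 at -0.68, were negative.

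The neutrophil-like cells rested on 94 cells in CTX and 77 in Combined against 463 in MRX. All of their 16 monocyte-macrophage markers were above 0 in every library, and those markers summed to 1874 CPM in MRX, 7746 in CTX and 4477 in Combined, followed by 3034 in ctxd18t and 3197 in combod18t, beside 40394 to 68506 CPM of neutrophil markers. The median log2 ratio of all genes was itself -0.20 in neutrophil-like cells for CTX against MRX and 0.12 in B-like cells for Combined against MRX, and member ratios can be read relative to these. The summed level of the members in neutrophil-like cells of CTX, 2600.5 CPM (2451 to 2757), was above that of monocyte-macrophage-like cells, 1075 CPM (1066 to 1084). Other lists moved in the same comparison: of the type I interferon-stimulated genes 17 of 17 that passed the filter were past 2-fold higher.

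NK-like cells had 2 members past 2-fold in each comparison with MRX. The 8 members that passed the filter had positive log2 ratios in both, with a median of 0.58 in CTX and 0.44 in Combined against -0.01 and 0.06 over all genes. Gbp5 was at 22.9 CPM (19.1 to 27.2) in MRX, 48.0 (42.2 to 54.3) in CTX, 65.5 (60.3 to 71.1) in Combined, 61.9 (47.0 to 80.0) in ctxd18t and 50.7 (38.7 to 65.3) in combod18t. Iigp1 was at 2.34 CPM (1.25 to 4.01) in MRX, 10.8 (8.18 to 14.1) in CTX, 9.29 (7.38 to 11.6) in Combined, 19.2 in ctxd18t and 24.5 in combod18t. For both, MRX was lowest and did not overlap another library, and they were the only members past 2-fold in CTX against MRX (background 0.667%) and in Combined against MRX (background 0.723%), although Iigp1, with 13 UMIs in MRX, did not pass the filter of the background. The third largest ratio to MRX was that of Gbp2 in CTX, at 0.75, and of Gbp3 in Combined, at 0.77. Tgtp2 was lower in Combined (2.98 CPM) than in CTX (7.16 CPM), a log2 ratio of -1.03 (-2.05 to -0.50) where 0.065% of genes were lower. It rested on 26 and 37 UMIs and did not pass the filter of that background, and of the 9 members that did, none was past 2-fold.

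B-like cells had the lowest summed level in every library, from 158 CPM (140 to 177) in MRX to 317 (298 to 336) in Combined. Igtp alone was past 2-fold in CTX against MRX (background 0.516%), from 5.61 to 13.3 CPM, on 10 and 36 UMIs, below the filter of the background; Iigp1 at 1.29 and Tgtp2 at 1.24 had intervals that included 0. Irf1 went from 77.5 CPM (65.1 to 91.5) in MRX to 155 (140.3 to 170.3) in CTX, a log2 ratio of 0.99. In Combined against MRX 6 members were past it (background 0.952%), of which 3, Igtp at 1.69, Gbp5 and Irgm1, passed the filter of the background. Iigp1 at 2.05, Tgtp2 at 1.62 and Irgm2 did not; Iigp1 rested on 3 UMIs in MRX, and its interval ran from 0.92 to 4.94. In combod18t against ctxd18t, Iigp1 at 1.25 (0.66 to 2.27) and Gbp7 at 1.18 (0.81 to 1.68) were past 2-fold higher (background 2.44%, whose filter Iigp1 did not pass), and Gbp2 followed at 0.95. Monocyte-macrophage markers in these cells summed to 369 CPM in ctxd18t and 955 in combod18t, and T markers to 164 and 480 CPM; their part in the B-like ratios was not tested.

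Dendritic cells differed by member. In conventional dendritic-like cells 8 of the 10 members were past 2-fold higher in CTX than in MRX (background 3.68%) and 8 in Combined than in MRX (background 3.70%, whose filter Irgm2, 1 of the 8, did not pass). The class held subsets in different proportion: at resolution 2 its cDC1-like and cDC2-like clusters had 45 and 130 cells in MRX, 21 and 411 in CTX, and 13 and 80 in Combined. The part of that mix in the ratios was not tested. Iigp1 was at 13.8 CPM (9.08 to 20.0) in MRX, 99.2 (91.5 to 107) in CTX, 174 (154 to 197) in Combined, 38.4 (31.1 to 47.0) in ctxd18t and 105 (88.2 to 125) in combod18t. It was the sole member past 2-fold between combod18t and ctxd18t in this class, at 1.43 (1.06 to 1.85; background 2.21%). Gbp2 there was at 22.5, 136, 131, 49.0 and 39.4 CPM, and Igtp at 13.8, 59.97, 80.3, 38.0 and 39.4 CPM, in the same order of libraries.

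The pDC-like cells of MRX had the highest Irf1 level there, at 301 CPM (278 to 324), overlapping that of cluster 6 (277, 255 to 301). In pDC-like cells Irf1 was at 324 (295 to 354) in CTX and 307 (282 to 334) in Combined, so that Irf1 did not differ beyond counting error among these 3. It was 524 CPM (480.0 to 572) in ctxd18t and 315 (281 to 352) in combod18t. Gbp7 in the same cells went from 6.84 CPM (3.83 to 11.3) in MRX to 40.8 (31.1 to 52.6) in CTX and 73.5 (61.6 to 87.0) in Combined, and Iigp1 from 26.9 to 138 and 168 CPM. In CTX against MRX 3 members were past 2-fold (background 1.33%), namely Gbp7 at 2.41, Iigp1 at 2.32 and Igtp at 1.98. In Combined against MRX 6 were (background 4.08%), led by Gbp7 at 3.25, Gbp2 at 2.76 and Iigp1 at 2.60. In Combined against CTX 2 were higher (background 3.12%), Gbp2 at 1.89 and Gbp3 at 1.27, and in combod18t against ctxd18t 3 were higher (background 3.46%), namely Gbp2 at 1.76, Irgm2 at 1.49 and Igtp at 1.18. T markers in pDC-like cells summed to 1420 CPM in MRX, 1851 in CTX and 2169 in Combined, followed by 2376 in ctxd18t and 2550.3 in combod18t. At resolution 2 a cluster led by Il2, with pDC and T markers, split off with 3 cells of MRX, 7 of CTX, 32 of Combined, 7 of ctxd18t and 13 of combod18t. Without it no member was past 2-fold in Combined against CTX (background 0.924%), with Gbp2 at 1.59 (-0.20 to 5.39) and Gbp3 at 0.64 (-0.27 to 1.66), and 4 were in Combined against MRX (background 1.5%), of which Gbp7 and Iigp1 passed the filter and Gbp2 and Igtp did not. In CTX against MRX Gbp7, Iigp1 and Igtp remained past 2-fold (background 1.02%), Igtp again below the filter, with 27 UMIs in CTX. The combod18t cells numbered under 50. In the day 18 pair of the whole class, none of the 3 higher members passed the filter of the background, and of the 4 members that did, none was past 2-fold. Gbp2 was below the filter in the other comparisons in which it is named here too, and reached no more than 18.1 CPM in any library of this class.

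A small cluster led by Sparc and Col3a1, named fibroblast-like from its markers, had at least 50 cells in CTX, ctxd18t and combod18t. Its Iigp1 level was 826 CPM (722 to 940.2) in CTX and 546 (489 to 607) in ctxd18t, above that of every other class in those libraries. Monocyte-macrophage markers in it summed to 10997 CPM in CTX and 4797 in ctxd18t, beside 7779 and 9885 CPM of fibroblast markers. In combod18t the fibroblast markers were at 63.2 CPM, which goes against the name there, so its cells of that library are not compared. At resolution 2 the cluster with these markers had 47 cells in all, with 12 of CTX and 21 of ctxd18t. Whether the Iigp1 level of the class is that of fibroblasts was not tested.

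**Figure D4:**
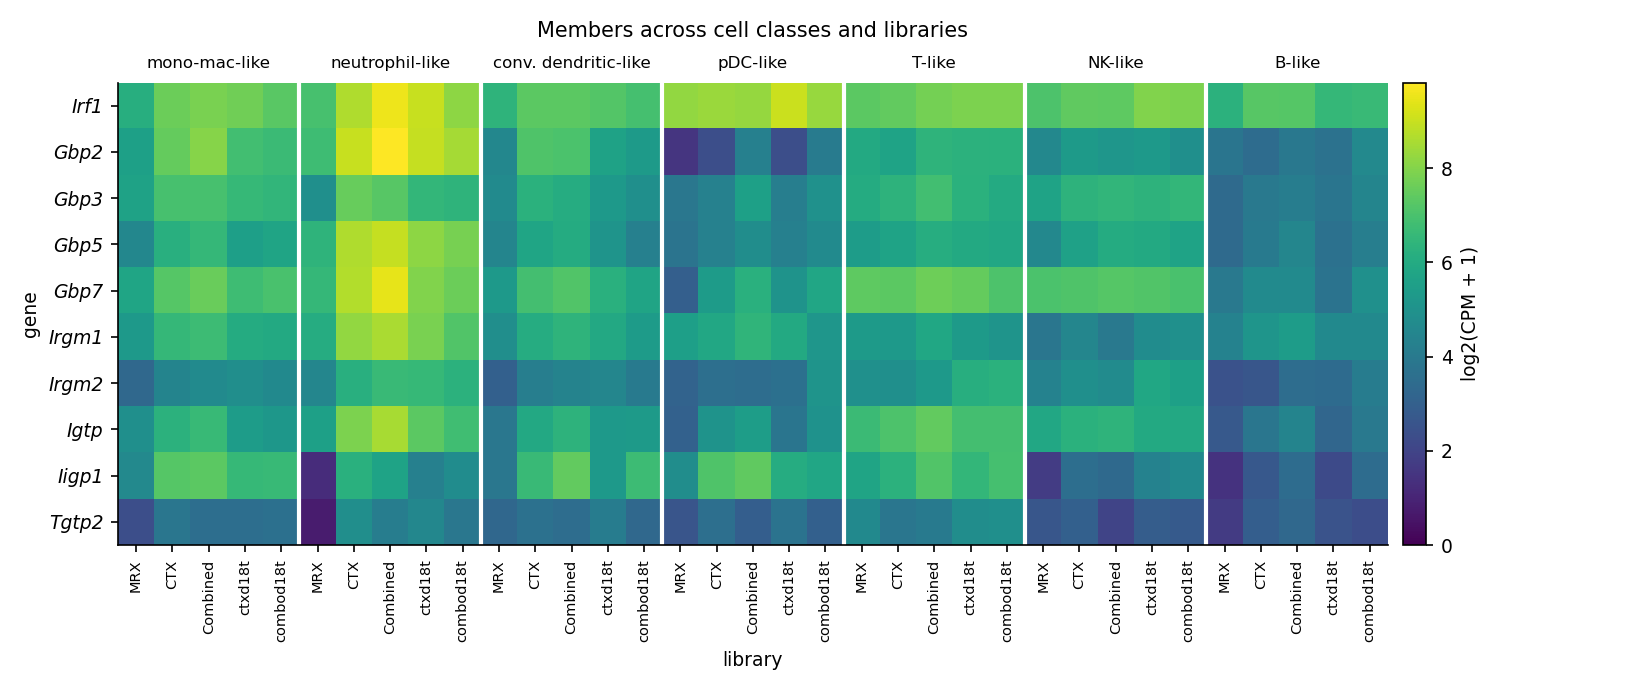
Level of each member (log2 of CPM + 1, colour) in 7 classes and 5 libraries; colours can be compared within a row but not between genes. Neutrophil-like cells of Combined hold the highest Gbp2 (899 CPM) and pDC-like cells of MRX the lowest (1.82 CPM).

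Ranked by the summed level of the 10 members, the classes changed order between libraries. In MRX T-like cells came first at 742 CPM (723 to 761), then cluster 6 at 633 (599 to 669), neutrophil-like cells at 571 (533 to 611), NK-like cells at 461 (443 to 479), pDC-like cells at 428 (401 to 457), monocyte-macrophage-like cells at 347 (337 to 358), conventional dendritic-like cells at 259.8 (238 to 283) and B-like cells at 158. Neighbours in that order had separate intervals except NK-like and pDC-like cells, and cluster 6 and neutrophil-like cells. In CTX and Combined, neutrophil-like cells led with 2600.5 and 3894 CPM, and monocyte-macrophage-like cells stood above T-like cells, at 1075 against 813 CPM and 1286 against 1107 CPM. In the day 18 libraries neutrophil-like cells led again, at 2159.9 and 1514 CPM, but T-like cells were above monocyte-macrophage-like cells, at 969 against 803 and 938 against 750.5 CPM. These sums lean on Irf1, which made up 301 of the 428 CPM in pDC-like cells of MRX. By the median over the 10 members the order in MRX was another: neutrophil-like cells came first at 57.03 CPM and T-like cells next at 56.6, and monocyte-macrophage-like cells at 33.6 lay above NK-like cells at 22.9 and pDC-like cells at 10.3.

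**Figure D5:**
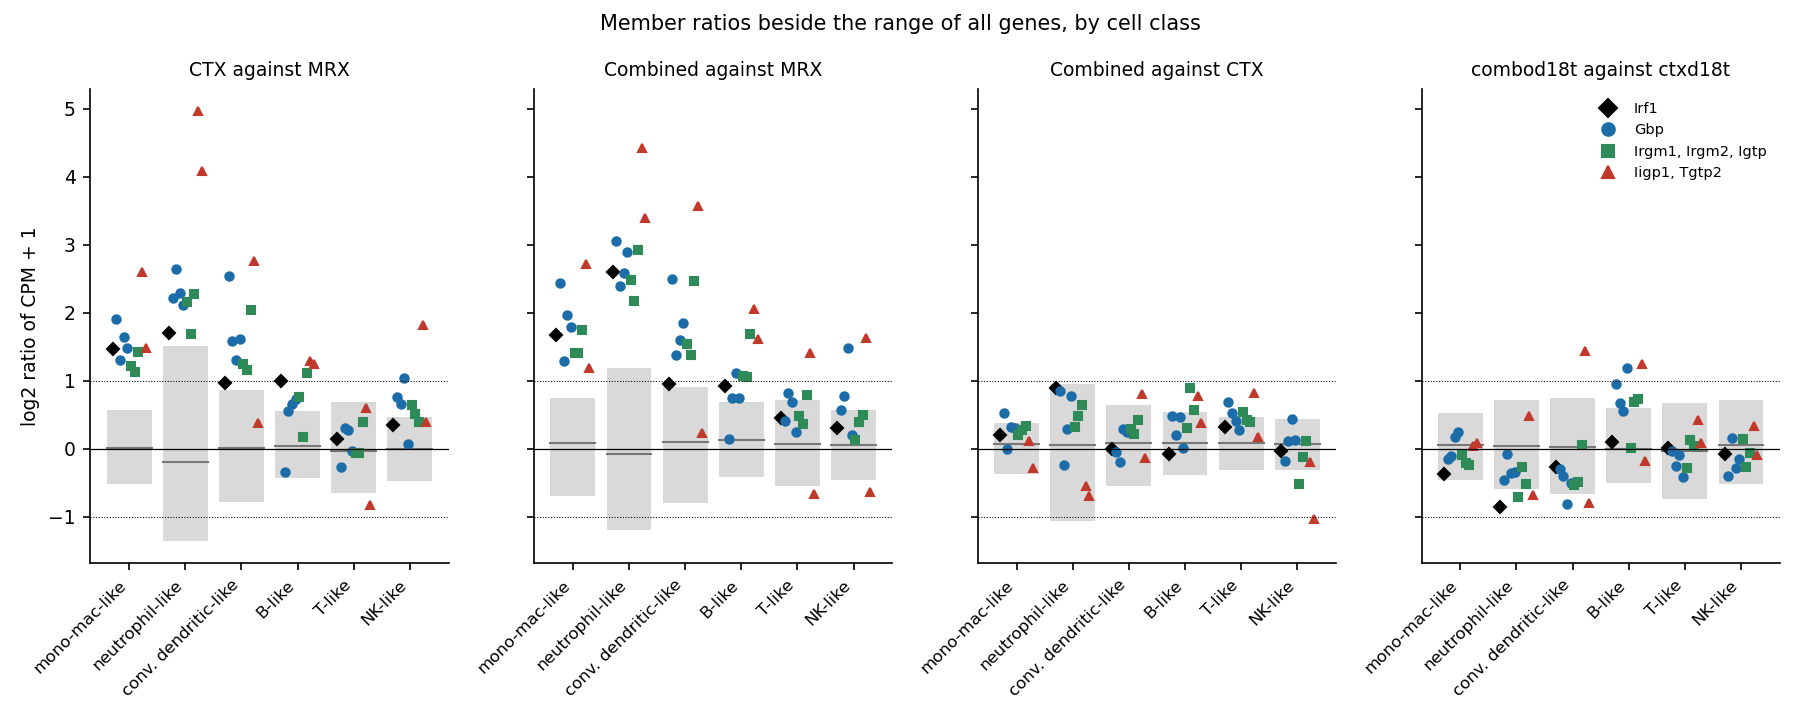
Log2 ratios of CPM + 1 for the 10 members, 1 point per member with its shape by gene group, in 6 classes and 4 comparisons; grey boxes run from the 5th to the 95th percentile of all genes of the class that passed the filter, with their median as a line, and dotted lines mark 2-fold. In monocyte-macrophage-like cells all members lie above 1 in both comparisons with MRX (1.13 to 2.59 for CTX), and between Combined and CTX they run from -0.29 to 0.52.

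The other genes of the pathway were read from lists and are given for the same cells. Of the other interferon-inducible GTPases, 6 of the 9 that passed the filter (of 15 found in the tables) were past 2-fold higher in CTX than in MRX in monocyte-macrophage-like cells, with a median log2 ratio of 1.94 against 0.01 over all genes. They were led by Gm4951 at 2.60, Gbp4 at 2.42, Gbp6 at 2.18, Gbp2b at 2.04 and Gbp8 at 1.94. Of the other interferon gamma targets, 10 of 14 were past 2-fold higher (median 1.27), led by the serpin Serpina3g at 2.70, the checkpoint ligand Cd274 at 1.90, the nitric oxide synthase Nos2 at 1.80, the chemokine Cxcl9 at 1.73 and Slamf8 at 1.70. Of the type I interferon-stimulated genes, Oasl1 alone of 18 was past it, at 1.32; 17 were positive and the median was 0.59. Of the partners in vacuole targeting and the inflammasome, only Casp1 of 15 was, at 1.16, and the median was -0.02.

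Among the receptor and signalling genes, Socs1 was past 2-fold higher in the same comparison, with a log2 ratio of 1.90. Socs1, the feedback inhibitor of the receptor's kinases, was at 20.3 CPM (17.8 to 23.1) in MRX, 78.6 (76.2 to 81.1) in CTX, 148 (142 to 154) in Combined, 73.5 (68.6 to 78.7) in ctxd18t and 26.8 (21.4 to 33.2) in combod18t. MRX was lowest of the first 3, Combined lay above CTX, and combod18t lay below ctxd18t. The receptor chain Ifngr1 ran the other way from the members, at 340.3 CPM in MRX, 196 in CTX and 209 in Combined, followed by 434 in ctxd18t and 466 in combod18t, with a log2 ratio of CTX to MRX of -0.80, and Ifngr2 was level at 192, 195 and 191 CPM in the first 3 libraries.

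Between the day 18 libraries single genes of the lists were past 2-fold lower, and no member was. In monocyte-macrophage-like cells Socs1 was past 2-fold lower in combod18t than in ctxd18t, at -1.42 (-1.80 to -1.13), as were Nos2 at -2.82 (-4.23 to -2.26) and Cxcl10 at -1.59 among the interferon gamma targets. Ifit1 at -1.34 and Usp18 at -1.03 were lower among the type I interferon-stimulated genes, where 1.02% of all genes were. The medians were -0.31 for the interferon gamma targets, -0.40 for the type I genes and -0.10 for the members, beside 0.05 over all genes. The differences between these medians were not tested.

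Ifng itself was read in the cells that make it. In T-like cells it was at 63.8 CPM (58.4 to 69.5) in MRX, 197 (189 to 205) in CTX, 303 (290 to 317) in Combined, 97.4 (91.5 to 104) in ctxd18t and 34.5 (31.9 to 37.3) in combod18t. In NK-like cells it was at 29.4 CPM (25.04 to 34.3), 69.3 (62.3 to 76.8), 142 (134 to 150.2), 44.8 (32.3 to 60.6) and 23.7 (15.7 to 34.2) in the same order. In both classes the order of MRX, CTX and Combined was that of the summed members in monocyte-macrophage-like cells. In T-like cells combod18t was 2-fold or more below ctxd18t, at -1.47 (-1.64 to -1.35). Over all 5 libraries the orders differed. Ifng was lowest in combod18t, in NK-like cells with an interval overlapping that of MRX. The summed members in monocyte-macrophage-like cells were 750.5 CPM in combod18t, against 347 in MRX and 803 in ctxd18t. Among MRX, CTX and Combined, the order of the class was kept in cluster 15 and, by value, in cluster 10. Clusters 7 and 9 did not keep it, and cluster 12 had too few cells in MRX. Cluster 15 had 111 CPM (92.2 to 133) in MRX, 237 (221 to 254) in CTX and 511 (473 to 552) in Combined, and cluster 12 had 601 CPM in CTX and 1300.1 in Combined. Cluster 10 had 26.7 CPM (18.9 to 36.7) in MRX, 136 (113 to 161) in CTX and 168 (145 to 195) in Combined, the last 2 overlapping. Cluster 2, led by Lef1 and S1pr1, in which no Ifng was read in these 2 libraries, made up 17.8% of the T-like cells of ctxd18t and 58.4% of those of combod18t. Within cluster 7 Ifng was at 127 CPM (107 to 149.96) in ctxd18t and 28.0 (19.01 to 39.7) in combod18t, and it was lower without overlap in cluster 10 (131 against 48.6 CPM), cluster 15 (84.1 against 34.9) and cluster 9 (23.5 against 6.95) too. Within cluster 12 the intervals overlapped, at 165 (151 to 180) and 142 (129.96 to 155). In cluster 7 Ifng was at 71.6 CPM (62.2 to 81.9) in MRX, 109 (89.4 to 131) in CTX and 78.5 (58.1 to 104) in Combined, so that the interval of Combined overlapped both others there. With 5 libraries no correlation across them is given. Monocyte-macrophage-like cells held at most 5.74 CPM of Ifng.

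The receptor genes were read in the cells that made Ifng too. T-like cells had 887 CPM of Ifngr1 in MRX, 621 in CTX and 741 in Combined, and Ifngr2 at 74.8, 55.6 and 67.5 CPM, with a higher level in combod18t (288, 280.0 to 296) than in ctxd18t (78.8, 73.5 to 84.4). NK-like cells had abundant Ifngr1, from 975 to 1865 CPM, but Ifngr2 at no more than 10.99 CPM in any library. Of the type I interferon-stimulated genes in T-like cells 5 of 14 were past 2-fold lower in CTX than in MRX and none was positive, with a median of -0.59. Over all genes 1.02% were past 2-fold lower there and the median was -0.03.

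Other interferon-inducible GTPases headed the genes outside the set whose level was most like the members', with Il15ra level with the last of them, Gbp8. Over 43 pairs of class and library, the level of each gene was correlated with the mean standardised level of the 10 members. The 8 highest genes outside the set were Gbp2b at r = 0.87, Gbp4 at 0.85, Ifi47 at 0.84, Gbp8 at 0.83, Il15ra at 0.83, Ifit1 at 0.79, Parp10 at 0.78 and Slfn1 at 0.78. Among the members themselves, which enter the mean, Igtp was at 0.91 and Gbp5 at 0.90, and Iigp1 was lowest at 0.62. Gbp3 and Gbp7 were the most alike pair named here, at 0.91, whereas Gbp2 ran less closely with Iigp1 (0.35) and Irf1 (0.32). The pairs of class and library share libraries and depth, and these values are descriptions.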

How the data were processed

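Cells of 6 libraries were captured with the 10x 3' on-chip multiplexing chemistry, and the deposited matrices hold raw UMI counts per gene and cell; Cell Ranger 9.0.1 made them, which both the labels' protocols and the file headers state, and GRCm39 and Seurat 5.2.0 appear in the submitters' processing notes, without a role. Counts of 5 libraries were used, and VC was not analysed here. The members and gene lists were chosen with earlier results of these data known.

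Cells with at least 200 genes and at most 15% mitochondrial counts were kept. Scrublet (scanpy 1.11.5, expected rate 0.06) marked under 0.5% of cells, so cells scoring above the library's 95th percentile were removed, 4.11% to 4.98% of cells by library because scores tie. Counts were scaled to 10000 per cell and logged; 2000 variable genes, without the members and all lists, gave 30 principal components and a graph of 15 neighbours, clustered with leidenalg 0.10.2 at resolution 1 without integration. Clusters were named from fixed markers by the class scoring highest among those with at least 3 markers seen, a scoring chosen after seeing the data; clusters 13 and 18 carried markers of several classes and were left out, cluster 6 was held apart, and a difference between classes may come from these names.

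Counts were summed per class and library of at least 50 cells and expressed as CPM, each with an exact Poisson interval. A log2 ratio was taken after adding 1 to each CPM, so low genes change less on this scale; its interval is the exact conditional binomial one and has no pseudocount. Past 2-fold means a size of 1 or more on that scale and an interval free of 0. Backgrounds are over genes with a mean of at least 10 CPM and 50 counts. Shares have exact Clopper-Pearson 95% intervals. UMI counts of transcript 3' ends are not scaled by length, and levels are not compared between genes. The ratio step was run on simulated counts with 200 changed genes. For CTX against MRX in monocyte-macrophage-like cells (7381 genes) 95.6% of the intervals held the true value. With 1 library a label, this does not cover the spread between animals or libraries. Named genes are all members in monocyte-macrophage-like and T-like cells, elsewhere those with the 3 largest ratios of a class, and of each list up to 5 past 2-fold. Clusters of T-like cells and genes beyond this rule were named after their values were seen. Promoter windows are RefSeq's, on GRCm38.p6; GRCm39 coordinates were not used with them. Some genes of the lists and some leading genes of clusters are not reported here.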

Additional observations from a re-analysis of the deposited data

Results flagged for a closer look

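The log2 ratios of Combined to CTX and of combod18t to ctxd18t had opposite signs, with counting intervals that exclude 0 on both sides, for 4 results. Irf1 in monocyte-macrophage-like cells was at 0.20 for the first pair and -0.38 for the day 18 pair. In T-like cells Gbp3 was at 0.52 and -0.26, Gbp7 at 0.28 and -0.42, and Irgm1 at 0.54 and -0.29. With the same mix of T-like clusters these were 0.31 and -0.03 for Gbp3, 0.10 and -0.30 for Gbp7, and 0.27 and -0.37 for Irgm1. The differences between the pairs were not tested, since each label has 1 library, and day and run cannot be told apart between them.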

How the results depend on the processing

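In monocyte-macrophage-like and T-like cells, the classes rerun under every setting, the counts of members past 2-fold kept their value under a minimum of 500 genes per cell, resolution 2, doublets kept and shared barcodes left out, the last chosen after seeing the data. In monocyte-macrophage-like cells, with the same mix of clusters, the 10 members higher in CTX than in MRX became 2. The 10 higher in Combined than in MRX became 6. These were counted by the size of the ratio alone, with no background share. A pseudocount of 10 CPM gave 8 in each comparison. Thinning each cell to 1000 UMIs gave 1 member higher in combod18t than in ctxd18t (Iigp1, 1.04) in place of 0. In T-like cells thinning gave 1 member lower in CTX than in MRX (Tgtp2, -1.16) in place of 0, and 2 higher in Combined than in MRX in place of 1, as did the mean of each cell's CPM. The thinned levels rest on few counts; for the mean of cells the cause was not tested. In pDC-like cells resolution 2, added after seeing the data, gave 0 members higher in Combined than in CTX in place of 2; it leaves out a mixed cluster. No direction past 2-fold reversed. Without the filter, 0.901% of genes were past 2-fold higher in CTX than in MRX in monocyte-macrophage-like cells. No paired analysis was possible because each label has 1 library, and for the same reason no replicate could be left out. In depth, Tgtp2 rested on 49 UMIs in monocyte-macrophage-like cells of MRX.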
